A study of Mus musculus with 2 samples.

Results

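Classical monocytes are the circulating Ly6C-high, CCR2-high blood monocytes, and here they were taken as all barcodes of a skin leukocyte experiment that pass a gate on a few marker genes. The gate kept 347 of the 27589 barcodes that had at least 200 genes and under 10% mitochondrial molecules (30421 barcodes before those filters). It asked for molecules of at least 2 of the 4 genes Ly6c2, Plac8, Vcan and Ms4a4c, and for at least 1 of Lyz2. It refused barcodes with 2 or more of the non-classical monocyte genes Ace, Treml4, Cd300e and Spn, or with any molecule of Cd3d, Cd3e, Cd3g, Cd79a or Siglech. It also refused those with 10 or more S100a8 and S100a9 molecules, with C1q genes at 0.3% of molecules or more, or with 3 or more Mki67 and Top2a molecules. Barcodes were thus chosen by the measured UMIs of these genes, whose levels are given as a description only.

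Pools of wild-type C57BL/6 mice were compared, all at postnatal day 15. One pool had received anti-Gr-1, an antibody that binds Ly6G of neutrophils and Ly6C of monocytes, on alternate days from day 4 to day 14, and the other an isotype control antibody on the same days. Live CD45+ cells of 4 to 7 mice were sorted per pool from collagenase-digested skin and run as 1 droplet library of 3′ ends, so there is 1 library per treatment and no difference between treatments has a replicate check. The series describes the antibody as a means of depleting monocytes; it is not specific to them, since it also binds neutrophils and other Ly6C-bearing cells.

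Classical monocytes leave the bone marrow through the chemokine receptor CCR2 and enter tissues, where they can turn into macrophages and dendritic-like antigen-presenting cells. In skin this influx feeds part of the dermal macrophage and monocyte-derived dendritic cell pool. In blood, some of them convert to non-classical monocytes, which patrol the vessel wall and lose Ly6C and CCR2. Their usual transcripts include those for adhesion and matrix proteins, Fc and Toll-like receptors, and interleukin-1 beta.

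The anti-Gr-1 library held 9110 barcodes and 85142470 unique molecular identifiers (UMIs, counted RNA molecules), with a median of 7463 a barcode. The isotype control library held 21311 barcodes and 125253392 UMIs, with a median of 4460. Barcodes in the gate were deeper, with a median of 15638 UMIs (6836 to 48942) in the anti-Gr-1 library and 8446 (552 to 36217) in the isotype control library. The libraries shared 61 barcode sequences, none of them in the gate. Molecules of Xist without Y-linked transcripts marked 11 of the anti-Gr-1 barcodes in the gate as female and the reverse marked 38 as male, against 91 and 104 in the isotype control. Levels below are CPM, each gene's share of the UMIs summed over all gate barcodes of a library scaled to a common total. Those sums were 1048518 UMIs in anti-Gr-1 and 2541304 UMIs in isotype control. Intervals in parentheses are 95% limits of counting error only (Clopper-Pearson for shares, exact conditional for ratios).

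The 4 genes that define the gate lie on different chromosomes of mm10. Ly6c2, which encodes the monocyte surface protein bound by anti-Gr-1, is at chr15:75108158-75111970. Plac8, a small cysteine-rich protein, is at chr5:100553725-100572245, Vcan, the matrix proteoglycan versican, at chr13:89655312-89742509, and Ms4a4c, a tetraspanning membrane protein, at chr19:11404770-11427246. Their RefSeq promoter windows on GRCm38.p6, 250 bases before to 50 after the start, are shown because these genes choose the barcodes and were all lower in the anti-Gr-1 members. The windows are chr15:75111922-75112221, chr5:100572156-100572455 and chr13:89742463-89742762 on the minus strand and chr19:11407411-11407710 on the plus strand. Ly6c2 and Plac8 have 2 listed windows each, of which only the first is shown and searched. The Ms4a4c window lies inside the gene span given above, not at the start of that span. Capitals mark GAGGAA on either strand (its reverse complement reads TTCCTC), the core that the myeloid factor PU.1 prefers.
Ly6c2: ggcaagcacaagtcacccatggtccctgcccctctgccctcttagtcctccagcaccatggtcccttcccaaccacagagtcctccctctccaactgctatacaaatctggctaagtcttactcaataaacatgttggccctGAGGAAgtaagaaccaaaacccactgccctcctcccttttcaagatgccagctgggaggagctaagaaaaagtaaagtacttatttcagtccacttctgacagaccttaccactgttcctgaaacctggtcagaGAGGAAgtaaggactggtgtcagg
Plac8: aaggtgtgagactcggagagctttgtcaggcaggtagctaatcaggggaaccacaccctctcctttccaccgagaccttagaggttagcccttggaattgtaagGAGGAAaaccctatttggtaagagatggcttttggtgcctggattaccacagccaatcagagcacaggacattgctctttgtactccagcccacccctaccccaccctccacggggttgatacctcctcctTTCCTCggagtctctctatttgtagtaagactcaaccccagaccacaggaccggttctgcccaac
Vcan: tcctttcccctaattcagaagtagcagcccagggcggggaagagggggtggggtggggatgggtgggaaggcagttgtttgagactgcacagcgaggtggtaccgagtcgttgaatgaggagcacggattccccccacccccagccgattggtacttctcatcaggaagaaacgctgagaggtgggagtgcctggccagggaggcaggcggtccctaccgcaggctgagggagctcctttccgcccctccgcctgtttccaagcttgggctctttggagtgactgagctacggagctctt
Ms4a4c: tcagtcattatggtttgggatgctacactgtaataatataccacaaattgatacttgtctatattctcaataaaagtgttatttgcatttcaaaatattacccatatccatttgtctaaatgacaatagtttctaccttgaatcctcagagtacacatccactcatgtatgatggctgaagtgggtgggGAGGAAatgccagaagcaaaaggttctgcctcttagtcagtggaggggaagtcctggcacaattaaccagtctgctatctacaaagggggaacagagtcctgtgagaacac
The core occurs in 2 places of the Ly6c2 and Plac8 windows and in 1 of the Ms4a4c window, and its letters are not in the Vcan window. It is common, being present in 28.3% of all 32851 promoter windows of the same length. Spi1, the PU.1 gene itself, was at 395 CPM in the anti-Gr-1 members and 374 CPM in the isotype control members.

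Fewer barcodes passed the gate after anti-Gr-1. They were 59 of 8047 (0.733%, 0.559 to 0.945%) in the anti-Gr-1 library and 288 of 19542 (1.47%, 1.31 to 1.65%) in the isotype control library, a ratio of 0.498 (0.369 to 0.660). A share of sorted CD45+ barcodes does not tell fewer monocytes from more of the other cells. The gap widened when more markers were asked for. With at least 3 markers the counts were 17 and 140 (ratio 0.295), with all 4 markers 5 and 59 (0.206), and with a Ly6c2 molecule 22 and 161 (0.332). With every barcode thinned to 2000 UMIs, which takes the depth gap away, the counts were 21 of 7704 and 236 of 14504 (ratio 0.168, 0.102 to 0.262), and 15 and 136 of these were members at full depth. Read by sex, the library shares gave ratios of 0.531 in female and 0.471 in male barcodes.

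Neighbouring myeloid gates did not all follow. Non-classical monocytes, with 21 and 114 barcodes, had a ratio of 0.447 (0.267 to 0.717). Macrophages rich in C1q, with 219 and 535 barcodes, had a ratio of 0.994 (0.846 to 1.17). Barcodes with type 2 dendritic cell genes, 1020 and 1943, had a ratio of 1.27 (1.18 to 1.38). The non-classical and dendritic gates ask for at least 2 detected genes, and these ratios are not given at equal depth. Kept barcodes had a median of 8139 UMIs in anti-Gr-1 and 4884 UMIs in isotype control. The part of depth in these ratios was not tested.

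**Figure D1:**
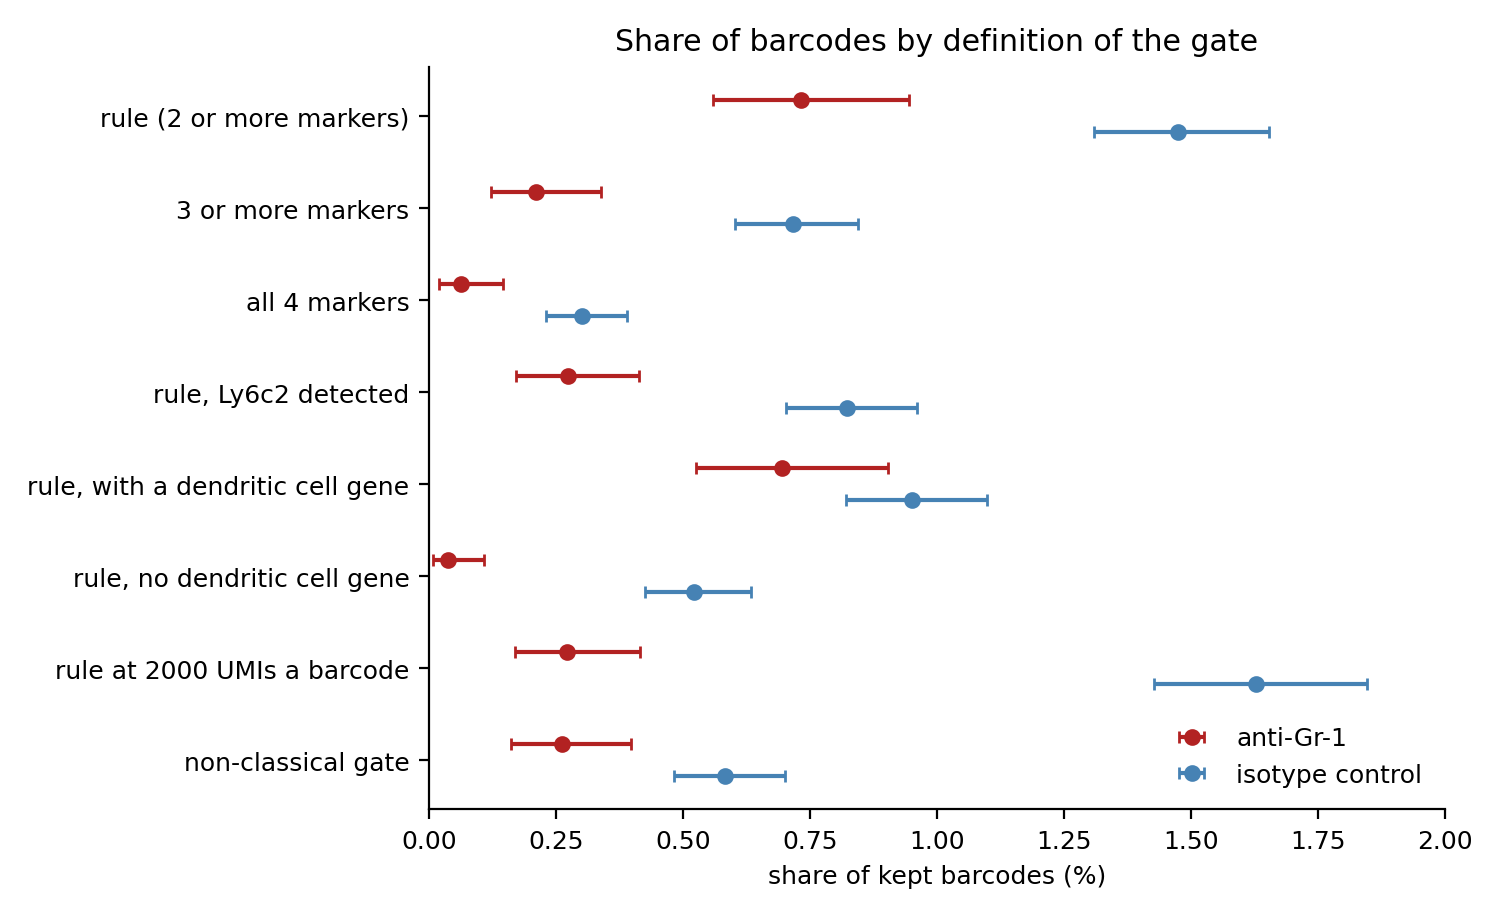
Share of kept barcodes (%, horizontal axis) that pass the gate under 7 readings of it, with the non-classical gate below for comparison. Points are the anti-Gr-1 library (red) and the isotype control library (blue), bars are 95% Clopper-Pearson intervals of counting error, and the anti-Gr-1 share is the lower of the 2 in every row, most nearly level among barcodes that also hold a dendritic cell gene (0.696% and 0.952%).

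The label of classical monocytes held only in part, and less so after anti-Gr-1. The 6 genes of dendritic cells Cd209a, Mgl2, Flt3, Clec9a, Xcr1 and Ccr7 served as the check, since none of them is in the rule. At least 1 of them was found in 56 of 59 anti-Gr-1 members (94.9%, 85.9 to 98.9%) and in 186 of 288 isotype control members (64.6%, 58.8 to 70.1%). The mast cell gate (at least 10 UMIs over Cpa3, Cma1 and Mcpt4) should lack these 6 genes. There the same shares were 18.0% (median depth 5976.5 UMIs) and 44.9% (median 2271), a background that includes free RNA. At 2000 UMIs a barcode, 15 of 21 anti-Gr-1 members (71.4%) and 98 of 236 isotype control members (41.5%) had one. The isotype control share at that depth was no higher than the 44.9% of its mast cell gate, which was not thinned. Of the anti-Gr-1 members 3 held none of the 6 genes, against 102 isotype control members, which is a share ratio of 0.0714 (0.0145 to 0.215). Members are therefore called gate barcodes below, and monocyte identity is not assumed for each.

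Most gate barcodes passed with 2 of the 4 markers, 71.2% of the anti-Gr-1 and 51.4% of the isotype control members. Plac8 with Ms4a4c alone, the commonest combination, admitted 29 anti-Gr-1 members (49.2%) and 73 isotype control members (25.3%), whereas all 4 genes were found in 5 (8.47%) and 59 (20.5%). Ms4a4c is also found in 45.6% of type 2 dendritic gate barcodes of the anti-Gr-1 library and 35.7% of those of the isotype control library. Ly6c2 itself was found in 37.3% of anti-Gr-1 and 55.9% of isotype control gate barcodes. In T cell gate barcodes, where it can stem from free RNA, Ly6c2 was found in 1.43% and 3.27%. The gate held 15.1% of all Ly6c2 UMIs of the anti-Gr-1 library and 23.8% of those of the isotype control library, so most Ly6c2 molecules lay in barcodes outside it.

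The edges of the rule mattered more for some conditions than for others. Just below the marker threshold, 434 anti-Gr-1 and 809 isotype control barcodes met all other conditions with 1 of the 4 genes, and 42 and 148 members stood just inside with 2. The T cell condition refused 41 and 323 barcodes that met everything else, of which 23 and 153 held a single Cd3 molecule; allowing that molecule gave 82 and 441 members. For the non-classical condition, 24 and 76 members held 1 of those 4 genes, and 1 and 18 barcodes were refused with exactly 2. No anti-Gr-1 barcode was refused for C1q alone, its highest member being at 0.166% of UMIs. In the isotype control the highest C1q member was at 0.298% and the nearest refused barcode at 0.303%. The S100a8 and S100a9 sum was at most 1 UMI for anti-Gr-1 and 8 UMIs for isotype control members, with the nearest refused barcodes at 36 and 22 UMIs. The division condition left 5 and 10 members at 2 Mki67 and Top2a UMIs and refused 1 and 11 barcodes at 3. Lyz2 was absent from 9 and 8 otherwise fitting barcodes.

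The rule genes themselves were lower in the anti-Gr-1 members. Ly6c2 was at 111 CPM in anti-Gr-1 and 376 CPM in isotype control members, Vcan at 91.6 and 260, and Plac8 at 465 and 974 (ratios 0.294, 0.352 and 0.477). Ms4a4c differed least, at 259 and 335 CPM (ratio 0.773). The gaps were smaller among members that hold a dendritic cell gene. The ratios there were 0.470 for Ly6c2, 0.523 for Vcan, 0.812 for Plac8 and 0.887 (0.764 to 1.03) for Ms4a4c. Lyz2, the lysozyme of phagocytes, was at 3980 and 7617 CPM. Ly6c2 reads can be shared with its near-identical neighbour Ly6c1, with 7 UMIs over the anti-Gr-1 members and 4 over the isotype control members. Ly6g, the neutrophil target of the antibody, had no UMI in the gate in either library, which allows up to 2.86 CPM in anti-Gr-1 and 1.18 CPM in isotype control members.

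Single barcodes varied far more than these sums show. Ly6c2 ranged from 0 to 2231 CPM (median 0) over anti-Gr-1 barcodes and from 0 to 6509 CPM (median 96.7) over isotype control barcodes. Plac8 had medians of 115 and 503 CPM, Ccr2 of 278 and 743, and Lyz2 of 1585 and 6766. Cd209a went the other way, with a median of 509 CPM over anti-Gr-1 and 0 CPM over isotype control barcodes, and H2-Ab1 had medians of 7225 and 4847 CPM. The ranges of the libraries overlapped for every one of these genes.

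**Figure D2:**
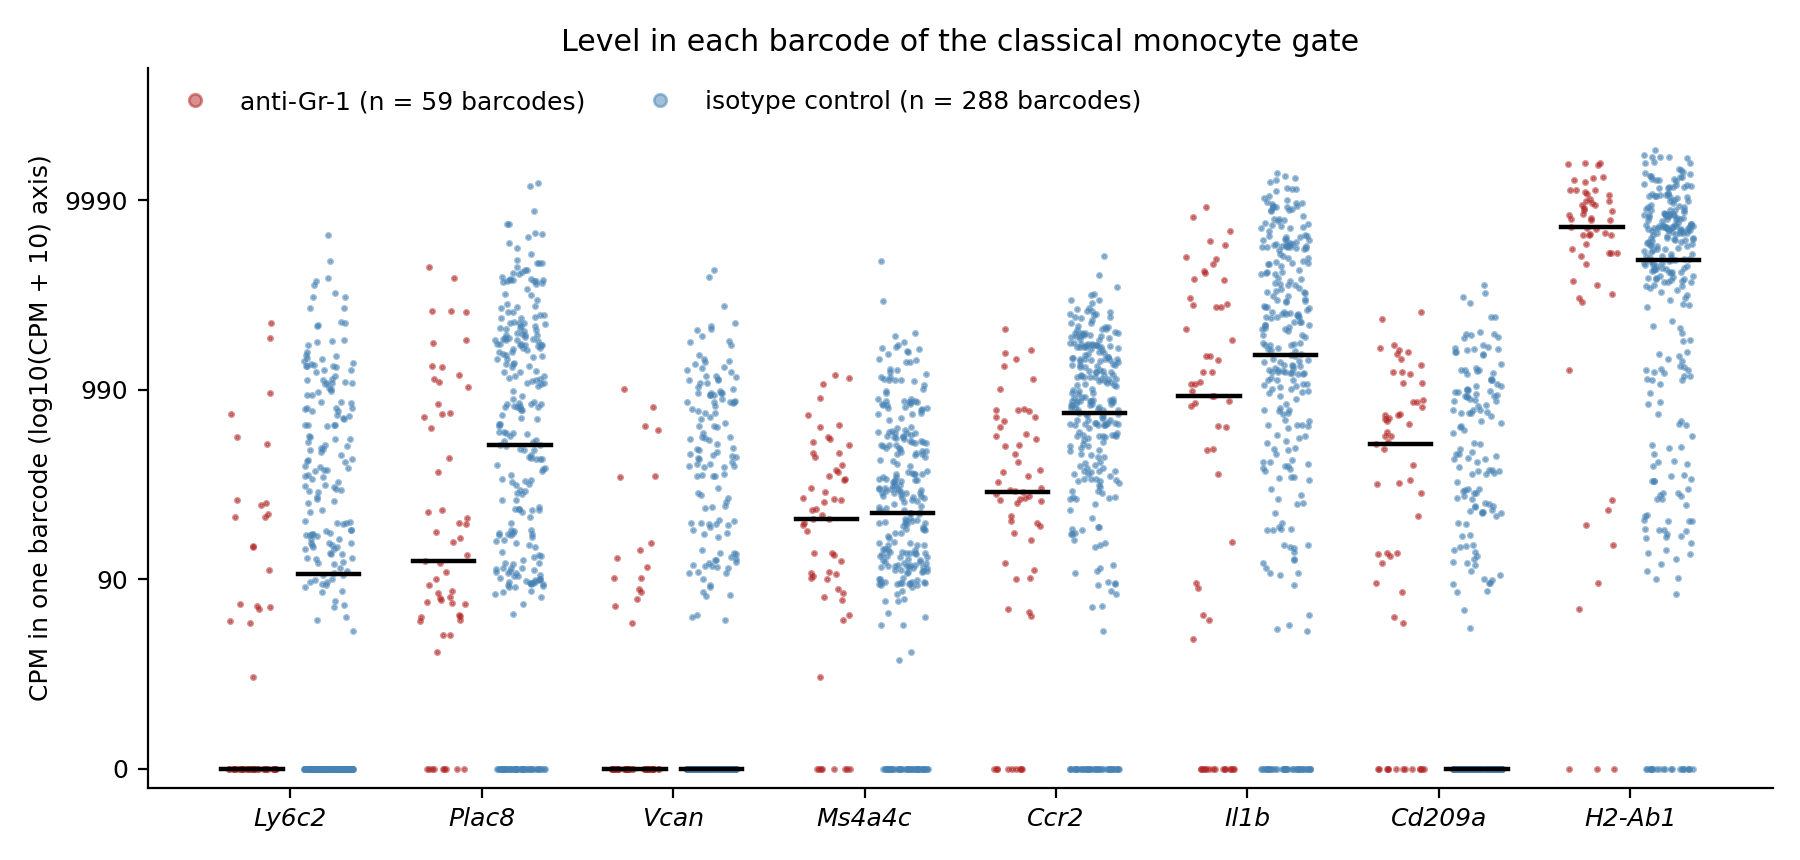
Level of 8 genes in each barcode of the gate (CPM on a log10(CPM + 10) axis); each point is 1 barcode, red for anti-Gr-1 (left of each pair, 59 barcodes) and blue for isotype control (right, 288 barcodes), and black bars are medians. Medians of Plac8, Ccr2 and Il1b are lower in anti-Gr-1, those of Cd209a and H2-Ab1 are higher, and the points of both libraries overlap throughout.

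Several genes that the rule does not use differed with the number of markers; those given here were picked after their values were seen. In the isotype control, Thbs1 was at 434, 1566 and 3175 CPM in barcodes with 2, 3 and 4 markers, at similar median depths of 8498, 8399 and 8447 UMIs. Fcgr1, the high-affinity Fc receptor, was at 14.3, 129 and 195 CPM. The dendritic lectin Cd209a ran down the same steps, at 618, 393 and 111 CPM, as did Mgl2 (1030, 539 and 258 CPM) and H2-Ab1 (7728, 5553 and 3318 CPM). A dendritic cell gene was found in 72.3%, 70.4% and 37.3% of these barcodes.

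In the anti-Gr-1 library, over 42, 12 and 5 barcodes, these genes ran the same way, but the share with a dendritic cell gene did not, at 95.2%, 91.7% and 100%. Thbs1 was at 5.66, 557 and 1151 CPM, Fcgr1 at 9.90, 88.2 and 174 CPM, and Cd209a at 774, 381 and 32.6 CPM. Ccr2 was below its isotype control level at each step, at 402, 433 and 576 CPM in anti-Gr-1 and 699, 1022 and 1049 CPM in isotype control. H2-Ab1 was at 8586, 7130 and 3627 CPM in anti-Gr-1, against 7728, 5553 and 3318 CPM in isotype control, above its isotype control level at each step.

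**Figure D3:**
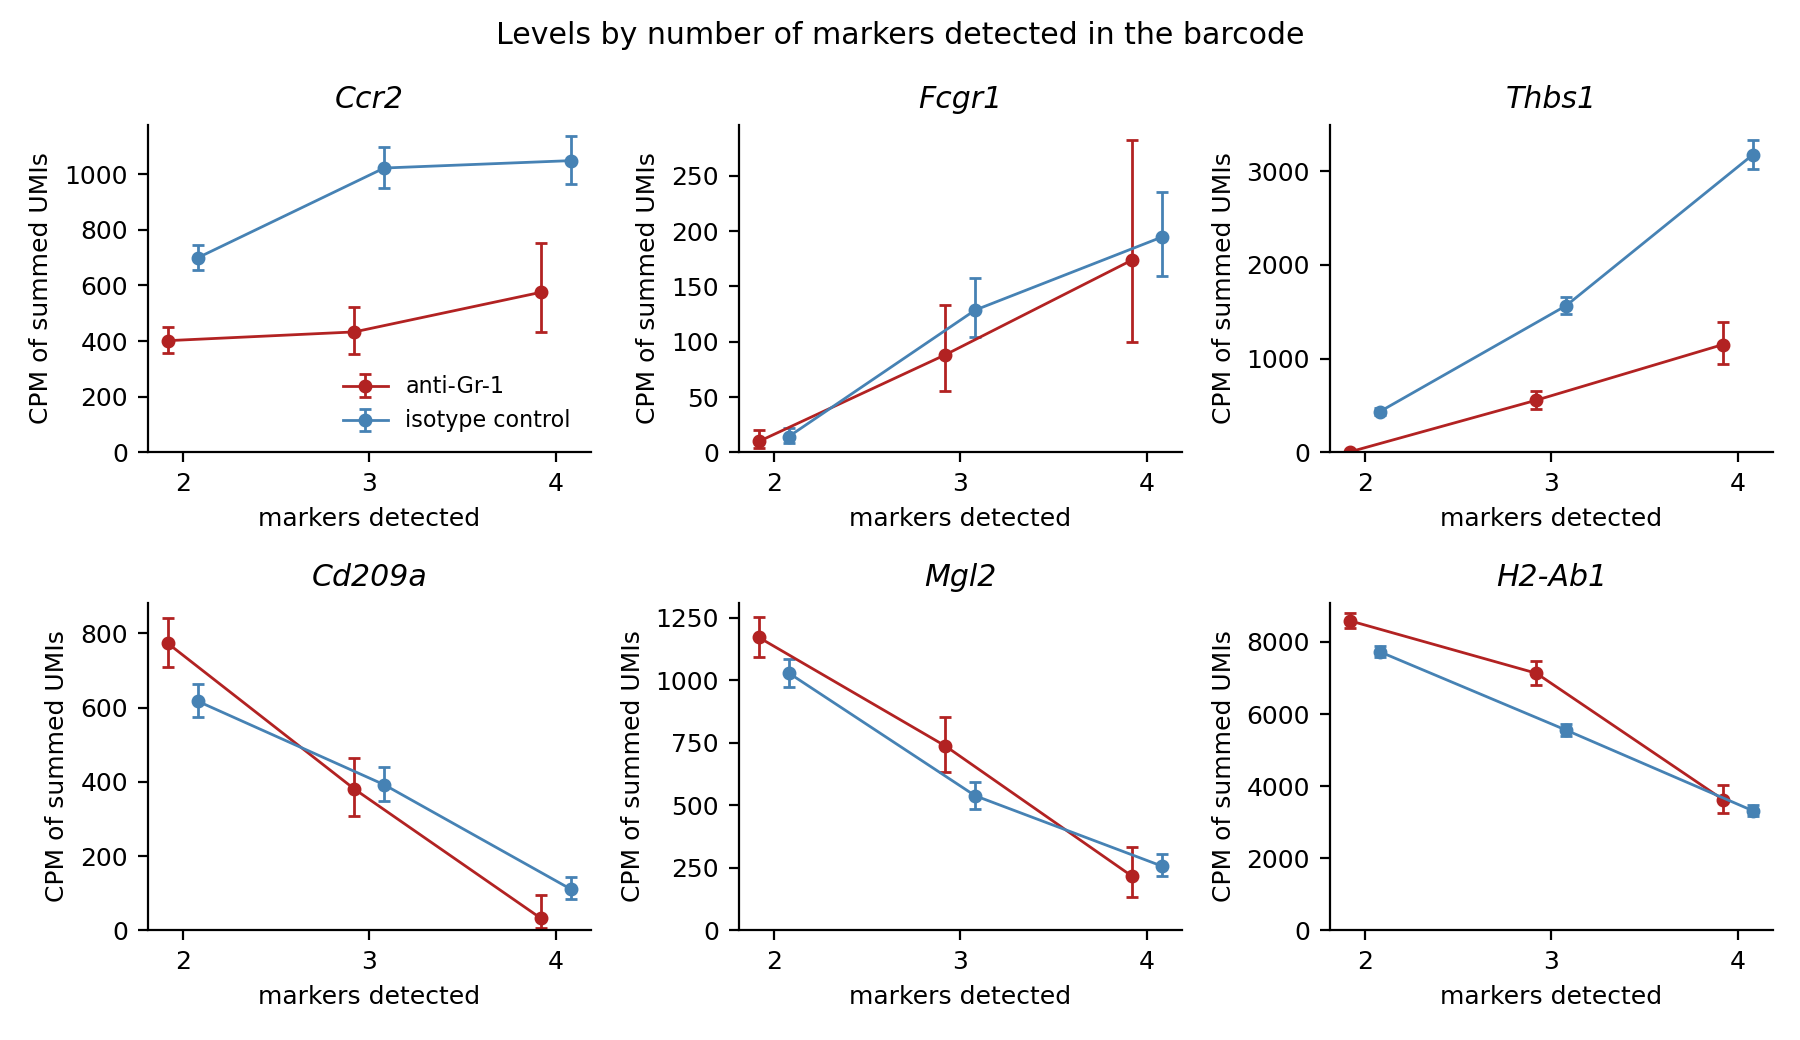
CPM of summed UMIs (vertical axes, from 0) for 6 genes in gate barcodes with 2, 3 or 4 of the rule's markers (horizontal axes), in anti-Gr-1 (red; 42, 12 and 5 barcodes) and isotype control (blue; 148, 81 and 59 barcodes), with 95% Poisson intervals of counting error. Fcgr1 and Thbs1 are higher and Cd209a, Mgl2 and H2-Ab1 lower with each further marker in both libraries.

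The genes that set the isotype control members apart from the other kept barcodes of that library are listed for orientation, since the gate was drawn on these cells. Thbs1, the matrix protein thrombospondin 1, led at 1345 CPM in the gate and 75.5 CPM in the rest. Next to it stood complement C3 (219 and 14.97 CPM), the fungal and mycobacterial lectin receptor Clec4e (348 and 37.3 CPM), the antiviral membrane protein Ifitm3 (1179 and 138 CPM), haptoglobin Hp (92.9 and 6.98 CPM) and the neutrophil-type collagenase Mmp8 (56.3 and 4.04 CPM). Toll-like receptor 2 (Tlr2), the scavenger receptor Msr1, the receptors Sirpb1c and Klra2 and the interferon-induced genes Rsad2, Ifit1, Ifit2 and Ifi204 completed the 15 with Spp1. Spp1 (osteopontin) was found in 2.78% of members and Rsad2 in 9.72%, whereas Thbs1 was found in 54.5% and Ifitm3 in 75.3%, so the first pair came from few barcodes.

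Of the 18 further markers of classical monocytes, 16 had at least 20 UMIs over both libraries and 50 CPM in 1 of them, the limits used for every gene below. All 16 were at least 3 times above the free RNA level in the isotype control members, taken as the lower of the T cell and mast cell gates. Dendritic cell markers were high in the gate, type 2 markers summing to 3430 CPM in anti-Gr-1 and 2114 CPM in isotype control members, and macrophage markers summed to 793 and 2027 CPM. Of the 6 type 2 markers measured, 3 were above free RNA in isotype control. The macrophage, T cell and neutrophil sums are held down by the rule itself, which caps the C1q genes, refuses Cd3 and caps S100a8 and S100a9. T cell genes summed to 27.7 CPM in anti-Gr-1 and 59.0 CPM in isotype control members, keratinocyte genes to 6.68 and 5.51 CPM, and fibroblast genes to 35.3 and 75.2 CPM. Neutrophil genes summed to 21.9 and 88.9 CPM, with 7 and 2 of the 11 at 0, and no granule gene of marrow progenitors was measured above the limits. Mast cell genes summed to 1279 CPM in anti-Gr-1 and 74.0 CPM in isotype control members, and 1 anti-Gr-1 barcode held 97.0% of the Cma1 and 96.5% of the Mcpt4 UMIs.

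Classical gate barcodes were then set against the 114 non-classical gate barcodes of the isotype control, the closest blood-borne relatives. Of 3245 measured genes, 77 (2.37%) were at least 2-fold higher in the classical gate and 176 (5.42%) at least 2-fold lower. Lower genes included all 13 non-classical markers, 4 of which the rule used. Of the other 9, Pglyrp1, a peptidoglycan-binding protein, was at 14.95 CPM in the classical and 311 CPM in the non-classical gate (ratio 0.0481, 0.0333 to 0.0679), Fcgr4, the Fc receptor of patrolling monocytes, at 26.0 and 217 CPM, and Nr4a1, the nuclear receptor that non-classical monocytes need, at 665 and 1649 CPM. The integrin chain Itgal was at 131 and 642 CPM, and the ion transporter Slc12a2 at 7.48 and 233 CPM (ratio 0.0321). Hes1 and Tcf7l2, nuclear factors of Notch and Wnt signalling, were at 17.3 and 256 CPM and at 9.44 and 122 CPM, and the apolipoprotein gene Apoc2 at 27.5 and 252 CPM. Mdm1 was at 2.36 and 60.2 CPM, and the fatty acid binding protein Fabp4 at 16.9 and 189 CPM.

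The 10 highest genes in the classical gate included receptors and chemokines. Ccr1 was at 112 CPM in the classical and 18.8 CPM in the non-classical gate (ratio 5.97, 3.56 to 10.8); it is a receptor for inflammatory CC chemokines. Gpr183, a receptor for oxysterols, was at 177 and 35.1 CPM, the metalloproteinase Mmp19 at 58.2 and 10.0 CPM, and Lyz1, whose reads can be shared with Lyz2, at 433 and 110 CPM. Gpr183 was not above free RNA (294 CPM) in either gate. Interferon genes were among the 10, with Ifit1 at 55.1 and 6.27 CPM and the chemokine Cxcl10 at 238 and 55.1 CPM. Few barcodes held them, 19 classical and 1 non-classical for Ifit1 and 32 and 8 for Cxcl10. Ccl17, a dendritic cell chemokine, was at 59.0 CPM against no UMI in the non-classical gate, at least 15.7-fold higher with that gate set to 3 UMIs, but 84.0% of its molecules came from 1 barcode. Ccl24 (81.1 and 5.01 CPM) and Spp1 (122 and 18.8 CPM) also rested on few barcodes, with 50.5% and 44.7% of their UMIs in 1 barcode.

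By list, 5 of 14 interferon response genes were at least 2-fold higher in the classical gate and none lower, and of 5 chemokine receptors 2 were higher and 2 (Cx3cr1 and Cxcr4) lower. None of the 7 IL-1, 8 NF-kB brake and 5 cytokine genes measured above the limits was 2-fold apart in either direction. Of the 16 further classical markers, none was at least 2-fold higher and 3 were at least 2-fold lower than in the non-classical gate: Ifitm6 (103 and 387 CPM), Msrb1 (192 and 544 CPM) and Mgst1 (67.3 and 140 CPM). Of the 4 rule markers only 2 were at least 2-fold higher in the classical gate. Plac8, a rule gene, was at 974 CPM in the classical and 1917 CPM in the non-classical gate, short of 2-fold. Ly6c2, at 376 CPM in the classical gate, was also short of 2-fold apart (its non-classical level is in the last paragraph). The mast cell proteases Cma1 and Mcpt4 were at 17.3 and 30.3 CPM in the classical and at 316 and 411 CPM in the non-classical gate, where 57.9% and 47.9% of their UMIs lay in 1 barcode. The third mast cell gene, Cpa3, was at 16.5 and 193 CPM.

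**Figure D4:**
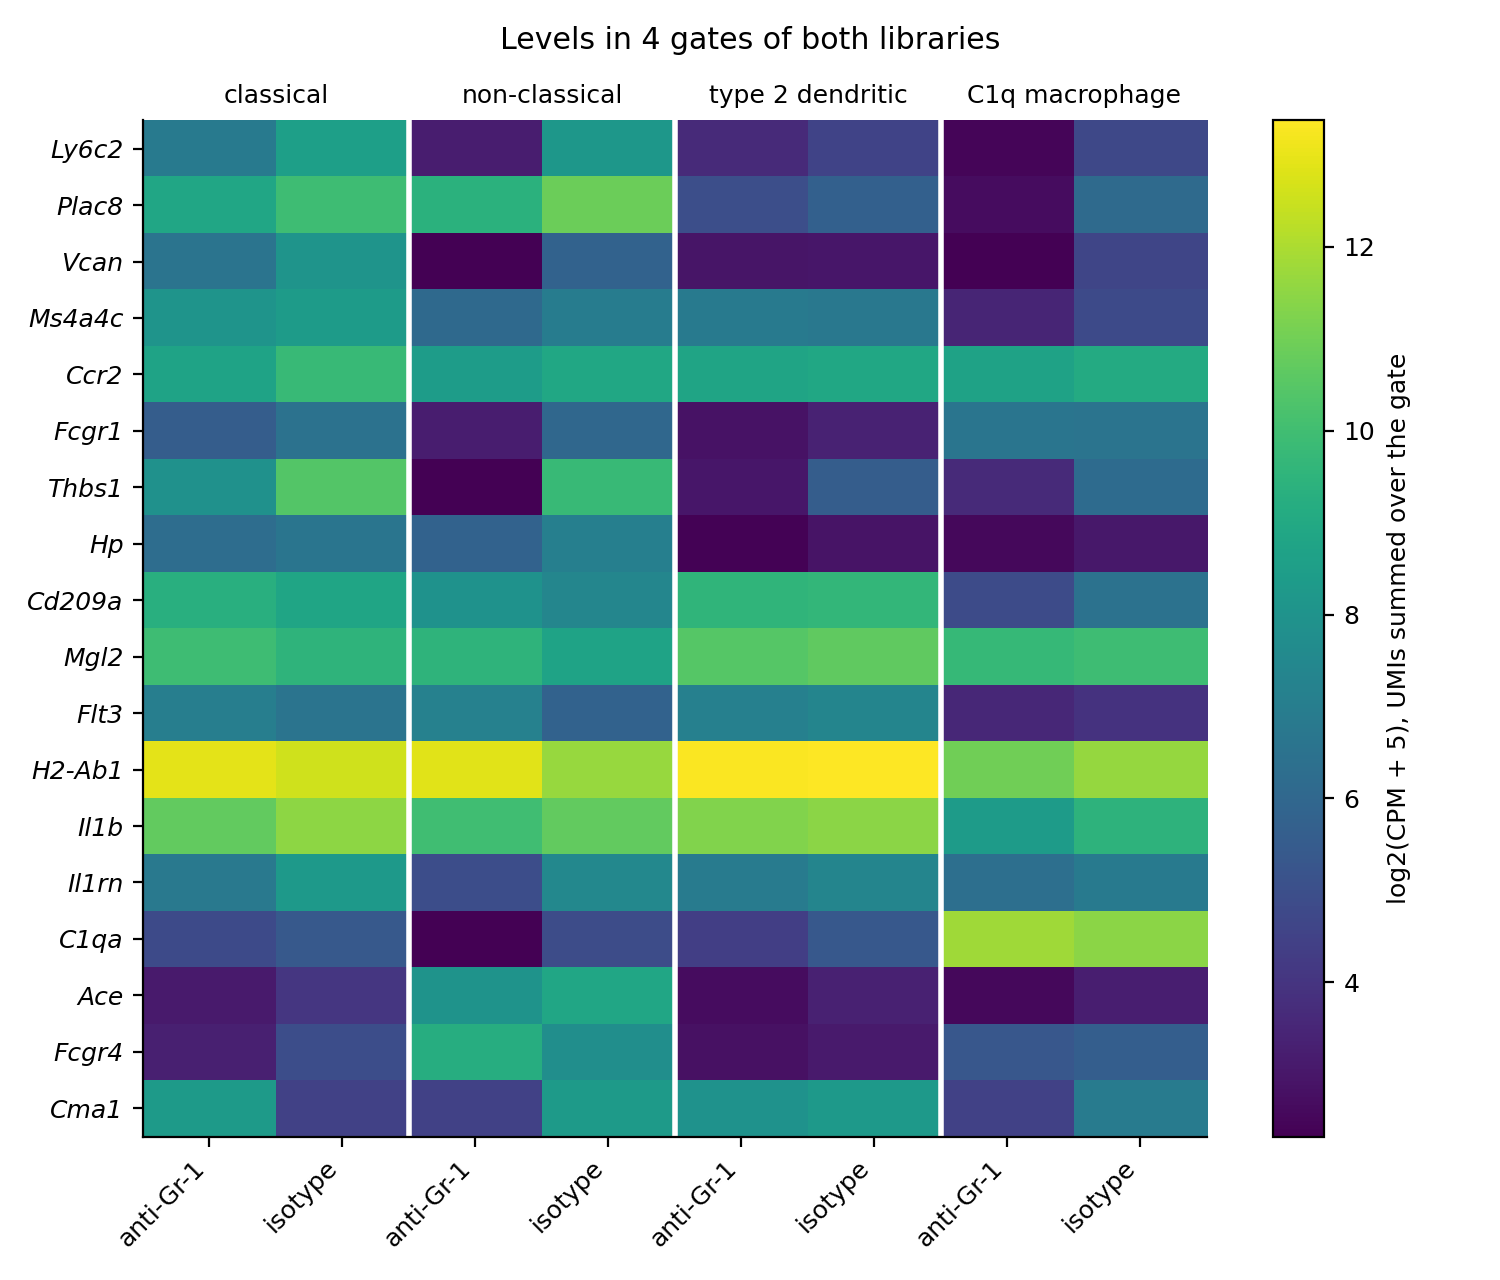
Levels of 18 genes (rows) as log2(CPM + 5) of UMIs summed over a gate, in the classical, non-classical, type 2 dendritic and C1q macrophage gates, each with anti-Gr-1 left and isotype control right. Fcgr1, Thbs1 and Hp are higher in the classical than the dendritic gate in both libraries, Ace and Fcgr4 are highest in the non-classical gate, and Thbs1 is visibly lower in the anti-Gr-1 than the isotype control column of the classical gate.

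The type 2 dendritic gate, which shares the dendritic cell genes found in many members, was the other comparison. In the anti-Gr-1 library 57 of 2844 genes (2%) were at least 2-fold higher and 33 (1.16%) at least 2-fold lower in the classical than in the dendritic gate. In the isotype control library 125 of 3033 (4.12%) were higher and 57 (1.88%) lower. On the log2 scale of CPM + 5 Thbs1 was highest in both libraries, at 237 CPM in the classical and 2.85 CPM in the dendritic gate of anti-Gr-1, and at 1345 and 42.5 CPM in isotype control. Hp had the larger plain ratio, at 72.5 and 0.247 CPM in anti-Gr-1 and 92.9 and 2.42 CPM in isotype control. C3 was at 69.6 and 9.09 CPM and at 219 and 11.9 CPM, and Ifitm3 at 1001 and 109 CPM and at 1179 and 107 CPM. Genes lower than in the dendritic gate were in part those of dividing cells, which the rule keeps out through Mki67 and Top2a. In isotype control the 3 lowest were the mast cell genes Cma1 (17.3 and 303 CPM), Cpa3 (16.5 and 245 CPM) and Mcpt4 (30.3 and 381 CPM), with Tpsb2 (9.84 and 123 CPM) also among the 10 lowest. Hist1h2ap was at 19.1 and 168 CPM in anti-Gr-1 and at 14.95 and 130 CPM in isotype control. In anti-Gr-1 the lectin Cd209b (10.5 and 58.2 CPM), the elastase Mmp12 (102 and 304 CPM) and the semaphorin receptor Nrp2 (37.2 and 107 CPM) were also lower in the classical gate.

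The treatment comparison within the gate gave more lower than higher genes. Of 3003 measured genes, 33 (1.1%) were at least 2-fold higher and 112 (3.73%) at least 2-fold lower in the anti-Gr-1 members, and the median gene stood at -0.10 on the log2 scale of CPM + 5. Of the 33 higher genes, 16 had most of their anti-Gr-1 UMIs in a single barcode, and of the 112 lower genes 2 had most of their isotype control UMIs in a single barcode. The dendritic cell gene share and depth given above moved with the treatment beside every gene group that follows, and their part in these differences was not tested. List medians or log2 ratios are therefore also given over the 56 and 186 members that do hold a dendritic cell gene, or over the 17 and 140 with at least 3 markers, where they end a 2-fold difference named here.

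Further classical markers that passed the limits were lower together. All 16 measured were below 0 (median log2 ratio -1.01) and 9 were at least 2-fold lower. Chil3, a marker of the same list that fell below the limits, went the other way (levels under the other observations). Ccr2, the receptor that brings these cells out of the marrow, was at 424 CPM in anti-Gr-1 and 867 CPM in isotype control members (ratio 0.489, 0.441 to 0.542). Csf1r, the receptor for macrophage colony-stimulating factor, was at 126 and 307 CPM (ratio 0.411, 0.339 to 0.494). Thbs1 was at 237 and 1345 CPM (ratio 0.177, 0.155 to 0.201), Sirpb1c at 22.9 and 125 CPM, Emilin2, an elastin-associated matrix protein, at 99.2 and 259 CPM, and F13a1, a coagulation factor chain, at 103 and 212 CPM. Haptoglobin (72.5 and 92.9 CPM) and fibronectin Fn1 (606 and 750 CPM) were within 2-fold. Among members with a dendritic cell gene the list median was -0.72, and Ccr2 and Thbs1 stood at -0.93 and -1.65. With at least 3 markers Ccr2 stood at -1.12, Thbs1 at -1.64, Sirpb1c at -1.45 and Emilin2 at -1.26, whereas Csf1r (-0.62) and F13a1 (-0.04) were no longer 2-fold lower. F13a1 and Csf1r were also short of 2-fold among members with a dendritic cell gene as log2 ratios of CPM + 5, at -0.72 and -0.98.

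Macrophage maturation genes were lower as well, with 4 of 10 at least 2-fold lower and a median of -0.72. Apoe, the lipid carrier, was at 221 CPM in anti-Gr-1 and 766 CPM in isotype control members (ratio 0.289, 0.251 to 0.331), although neither level was 3 times above free RNA, and the lysosomal protease Lgmn was at 81.1 and 187 CPM. Spp1 was at 6.68 and 122 CPM, but 8 isotype control barcodes held all of its UMIs there. Adgre1, which encodes the macrophage antigen F4/80, and the mannose receptor Mrc1 were at 107 and 176 CPM and at 231 and 392 CPM. The list median was -0.75 among members with a dendritic cell gene and -0.53 with at least 3 markers, where Lgmn was at -0.86.

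Interferon response genes were lower in summed UMIs in 13 of 14 cases, 9 of them at least 2-fold (median -1.10). Of these, Ifit1, Ifit2, Irf7, Ifi209, Ly6a and Zbp1 were over the limit of 50 CPM in isotype control only. Isg15, the ubiquitin-like modifier, was at 62.9 CPM in anti-Gr-1 and 194 CPM in isotype control members, Ifit2, an interferon-induced tetratricopeptide repeat protein, at 14.3 and 73.2 CPM, and Ifi204, a DNA sensor of the same response, at 93.5 and 236 CPM. Rsad2 (viperin) was at 55.3 and 288 CPM (ratio 0.192, 0.145 to 0.251). Few barcodes carried it, with 8 of 59 and 28 of 288 holding a molecule and 74.1% of the anti-Gr-1 UMIs in 1 of them. Ifit2 was found in 3 and 19 barcodes, with 53.3% of its anti-Gr-1 and 24.2% of its isotype control UMIs in 1 barcode. In isotype control 1 barcode also held 29.7% of the Ly6a and 22.8% of the Isg15 UMIs. Anti-Gr-1 barcodes, which were deeper, held a molecule more often for Rsad2, Ifit1, Isg15, Irf7, Ifi209 and Zbp1. The shares were 33.9% and 23.96% for Irf7 and 37.3% and 33.7% for Zbp1, anti-Gr-1 first. Anti-Gr-1 barcodes held a molecule less often for Ifi204 (42.4% and 60.4%), Ifit2 and Ly6a. The anti-Gr-1 level of Isg15 was not above free RNA. Among members with a dendritic cell gene the log2 ratio of Rsad2 was -0.21, that of Isg15 -0.49 and the list median -0.66. With at least 3 markers the list median was -1.14 and Ifi204 was at -0.84. Bst2 (tetherin) was the exception, at 340 CPM in anti-Gr-1 and 222 CPM in isotype control members.

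The promoters of Rsad2 and of the interferon-induced chemokine Cxcl10 are shown because both genes are among the 10 lowest after anti-Gr-1. The RefSeq windows on GRCm38.p6 are chr12:26456403-26456702 and chr5:92348840-92349139, both on the minus strand. Capitals mark the interferon-stimulated response element, searched as GAAA, any 2 bases (NN) and GAAA again, or with TTTC in place of GAAA for the opposite strand.
Rsad2: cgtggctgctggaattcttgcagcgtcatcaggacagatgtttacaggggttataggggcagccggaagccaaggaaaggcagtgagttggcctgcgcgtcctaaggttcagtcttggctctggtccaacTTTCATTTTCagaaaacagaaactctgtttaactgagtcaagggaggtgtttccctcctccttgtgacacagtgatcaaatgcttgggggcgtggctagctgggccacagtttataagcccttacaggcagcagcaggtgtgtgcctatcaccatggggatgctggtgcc
Cxcl10: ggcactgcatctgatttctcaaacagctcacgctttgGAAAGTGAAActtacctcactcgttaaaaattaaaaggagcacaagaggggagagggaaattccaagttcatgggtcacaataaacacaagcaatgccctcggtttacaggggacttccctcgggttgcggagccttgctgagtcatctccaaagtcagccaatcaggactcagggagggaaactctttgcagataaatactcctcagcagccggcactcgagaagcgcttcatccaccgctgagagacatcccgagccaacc
Each window holds 1 match, against 3.44% of all 32851 windows. Of the 9 interferon list genes that were at least 2-fold lower, 6 had a listed window and 3 of these held the motif (Ifit1, Isg15 and Rsad2). Of the 5 that were not, 2 had a window and both held it (Bst2 and Slfn5).

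In the interleukin-1 pathway, Il1b was at 1700 CPM in anti-Gr-1 and 2851 CPM in isotype control members (ratio 0.596, 0.566 to 0.628), short of 2-fold. It was at 0.463 among members with a Ly6c2 UMI. By sex the Il1b ratio was 0.0632 (0.0444 to 0.0874) in female barcodes, 11 against 91, and 0.607 (0.567 to 0.649) in male barcodes, 38 against 104; the difference between the sexes was not tested. Its antagonist Il1rn was at 107 and 302 CPM (ratio 0.353, 0.287 to 0.431), and Casp4, the caspase of the non-canonical inflammasome, at 43.9 and 116 CPM. Il1rn was short of 2-fold with at least 3 markers (ratio 0.625), with a Ly6c2 UMI (0.648) and in male barcodes (0.568), while female barcodes gave 0.0551 (0.0113 to 0.163) from 3 and 244 UMIs. Casp4 was at -0.85 with at least 3 markers. Il1rn and Casp4 were the only genes of the 7 measured at least 2-fold lower over all members. Nlrp3, the inflammasome sensor, was at 77.3 and 133 CPM, and the adaptor Pycard at 159 and 135 CPM, not above free RNA. The decoy receptor Il1r2 was below the limits, with 38 and 105 UMIs, or 36.2 and 41.3 CPM. Il1b molecules were also plentiful outside the gate, which held 2.21% of those of the anti-Gr-1 library and 4.95% of those of the isotype control library.

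Cytokines were lower in 5 of 5 measured genes, 3 of them at least 2-fold (median -1.36). Tnf was at 35.3 CPM in anti-Gr-1 and 141 CPM in isotype control members, Osm (oncostatin M) at 52.5 and 142 CPM, and Areg (amphiregulin) at 32.4 and 98.0 CPM; Tnf and Areg were not above free RNA. Tgfb1 was at 221 and 281 CPM and also not above free RNA. The list median was -0.56 among members with a dendritic cell gene and -0.41 with at least 3 markers. Osm was short of 2-fold in both, at -0.56 and -0.42 on the log2 scale, and Areg (-0.41) and Tnf (-0.96) were short of it with at least 3 markers. Tnf and Areg were over the limit of 50 CPM in isotype control only. Il6, Il10, Il12b and Il23a were below the limits in the gate, with 41, 2, 1 and 1 UMIs among anti-Gr-1 members and 26, 7, 2 and 4 among isotype control members. Il6 thus went the other way, being higher in anti-Gr-1, where the members had fewer UMIs in all (1048518 against 2541304).

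Chemokines pointed in both directions, with 2 of 12 at least 2-fold higher and 3 lower. Ccl7, a ligand of CCR2, was at 258 CPM in anti-Gr-1 and 11.4 CPM in isotype control members (ratio 22.6, 15.4 to 34.3), but 6 anti-Gr-1 barcodes held it and 1 of them had 61.9% of its UMIs. Cxcl3 was at 59.1 and 3.15 CPM, with 53.2% of its anti-Gr-1 UMIs in 1 barcode. Ccl2, the other main CCR2 ligand, was at 233 and 128 CPM. Cxcl2, a neutrophil attractant, was at 448 and 1397 CPM (ratio 0.321, 0.291 to 0.353), with 49.8% of its anti-Gr-1 UMIs in 1 barcode and a ratio of 0.719 with at least 3 markers. Cxcl10 was at 39.1 and 238 CPM (ratio 0.165, 0.117 to 0.226), with a log2 ratio of -0.92 among members with a dendritic cell gene. Ccl17 was seen once among the anti-Gr-1 members, against 150 UMIs in the isotype control members (ratio 0.0162, 0.000406 to 0.0914), and Ccl24 was at 23.8 and 81.1 CPM, short of 2-fold among members with a dendritic cell gene (-0.80) and with at least 3 markers (-0.99). The chemokine median was 0.34 over all members and -0.32 with at least 3 markers.

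Some surface receptors were lower in the summed members. Of 5 chemokine receptors 3 were at least 2-fold lower, among them Ccr2 and Ccr1 (34.3 CPM in anti-Gr-1, 112 CPM in isotype control), Ccr1 being at -0.97 among members with a dendritic cell gene and -0.92 with at least 3 markers. Cx3cr1, the receptor of patrolling monocytes, was at 69.6 and 76.3 CPM. Of 9 pattern and Fc receptors 3 were at least 2-fold lower, namely Tlr2 (126 and 308 CPM), Clec4e (161 and 348 CPM) and Clec4d (30.5 and 98.0 CPM). With at least 3 markers Tlr2 was at -0.19, Clec4e at -0.04 and Clec4d at -1.05 on the log2 scale, and the list median was -0.24, against -0.92 over all members. Among members with a dendritic cell gene Clec4e (-0.67) and Clec4d (-0.78) were short of 2-fold. The lipopolysaccharide co-receptor Cd14 (362 and 710 CPM) and Fcgr1 (42.9 and 85.8 CPM) were just short of 2-fold. Fcer1g, the shared Fc receptor chain, was at 1488 and 1603 CPM, not above free RNA, and Fcgr2b at 368 and 344 CPM.

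Of 14 transcription factors 2 were at least 2-fold lower. Cebpb, a driver of monocyte genes, was at 447 CPM in anti-Gr-1 and 999 CPM in isotype control members (ratio 0.448, 0.405 to 0.494), the anti-Gr-1 level being not above free RNA. Its ratio was 0.540 among members with a dendritic cell gene and 0.865 with at least 3 markers. Irf8, which steers progenitors to monocytes and dendritic cells, was higher but within 2-fold, at 252 and 126 CPM (ratio 1.99, 1.69 to 2.35). Klf4, not above free RNA, and Zeb2 were at 696 and 870 CPM and at 572 and 865 CPM. In the growth factor receptors, Csf3r was at 13.3 and 53.9 CPM and the granulocyte-macrophage receptor chain Csf2ra at 226 and 305 CPM. Among complement genes C3 was at 69.6 and 219 CPM, and all 8 measured were below 0 (median -0.71). With at least 3 markers C3 was at -0.90 and the list median at -0.18. Itgal, not above free RNA, was at 38.1 and 131 CPM among 11 adhesion genes, of which only it and Thbs1 were at least 2-fold lower.

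MHC class II genes differed little, with 7 of 8 above 0 and none 2-fold apart (median 0.32). H2-Ab1 was at 7804 CPM in anti-Gr-1 and 6159 CPM in isotype control members (ratio 1.27, 1.23 to 1.30) and in isotype control not above free RNA, Cd74 at 17841 and 15394 CPM, and the peptide-loading chain H2-DMb1 at 779 and 532 CPM. Among members with a dendritic cell gene the median was 0.08. Type 2 dendritic cell markers were all 6 above 0 (median 0.48), led by Cd209d at 1340 and 593 CPM (ratio 2.26, 2.10 to 2.43), the only one past 2-fold, with Cd209a at 615 and 445 CPM and Flt3 at 128 and 89.3 CPM. In isotype control 3 of the 6 were above free RNA, and Cd209d was not. Reads of the Cd209 family can be split between its near-identical members. The median of the type 2 markers among members with a dendritic cell gene was 0.11, and Cd209d stood at 0.80 there and at 0.66 with at least 3 markers. Cd209a, Mgl2 and Flt3 are also among the genes that choose those members, so the median of 0.11 is not independent of that choice.

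Fewer genes differed in the other programmes, and Fos, Gapdh, Zfp36 and Tnfaip3 below were not above free RNA in either library. Immediate early and heat shock genes, which digestion can induce, had none of 12 past 2-fold and a median of -0.13, with Fos at 2195 CPM in anti-Gr-1 and 2223 CPM in isotype control members. Glycolysis and hypoxia genes had none of 8 (median 0.17), with Gapdh at 798 and 639 CPM. NF-kB brakes had none of 8, with Zfp36, which destabilises cytokine messages, at 2272 and 2357 CPM and Tnfaip3 (A20) at 453 and 495 CPM. None of 4 survival genes was past 2-fold, with a median of -0.55 and Mcl1 at 934 and 1432 CPM. Glucocorticoid-induced genes had 1 of 4 past 2-fold (median 0.40), Klf9 at 84.9 and 39.7 CPM, not above free RNA and at 0.86 among members with a dendritic cell gene. In the lipid and secreted list, Ptgs2, the inducible cyclooxygenase, was at 112 and 367 CPM and the lipoprotein lipase Lpl at 196 and 272 CPM.

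**Figure D5:**
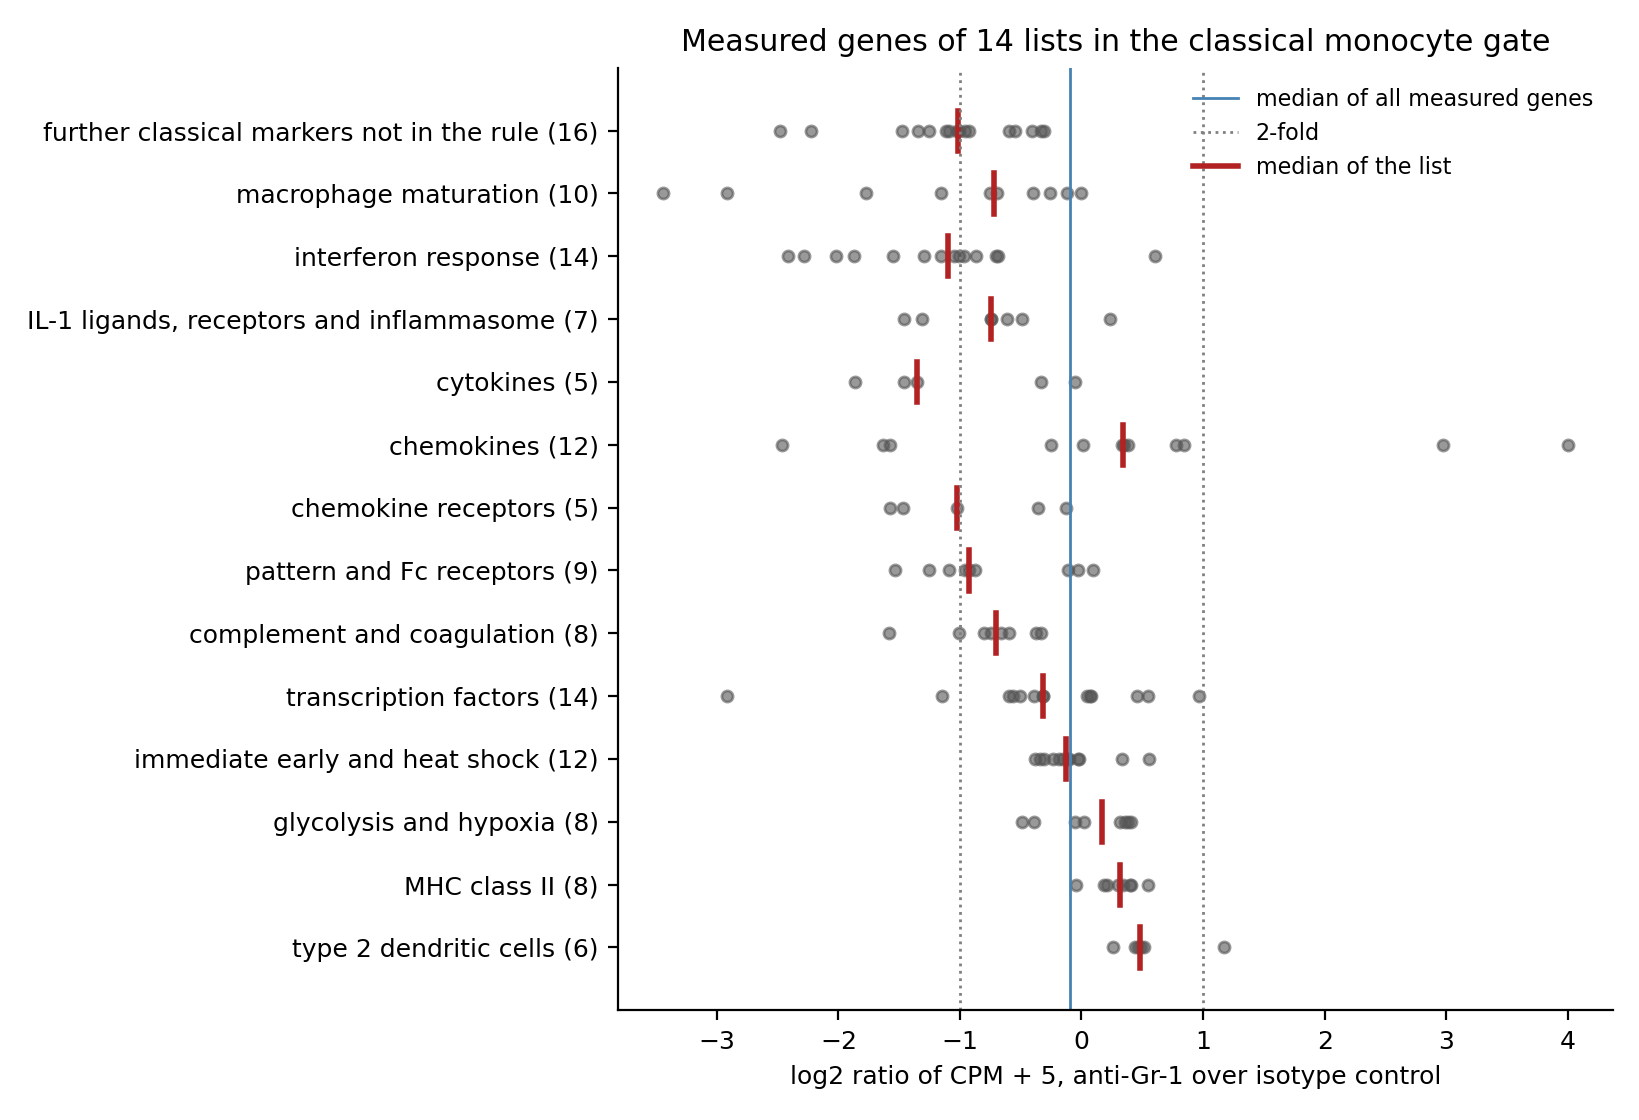
Log2 ratio of CPM + 5, anti-Gr-1 over isotype control members (horizontal axis), for the measured genes of 14 lists (number of genes in brackets); each grey point is a gene, red ticks are list medians, the blue line is the median of all 3003 measured genes and dotted lines mark 2-fold. Medians run from -1.36 for cytokines to 0.48 for type 2 dendritic cell markers.

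The most changed single genes were uneven across barcodes. Of the 10 highest, Cma1, Mcpt4 and Cpa3 are mast cell genes, at 317, 439 and 233 CPM in anti-Gr-1 and 17.3, 30.3 and 16.5 CPM in isotype control members, with 97.0%, 96.5% and 94.3% of the anti-Gr-1 UMIs in 1 barcode and none above free RNA. Without the 1 mast cell gate barcode in each library their log2 ratios were -0.49, -0.68 and -0.0081. Those barcodes were chosen by the UMIs of these same 3 genes, so this fall is built in and is a description only. Fabp4 (97.7%) and the dendritic actin bundler Fscn1 (87.3%) were as concentrated, at 248 and 16.9 CPM and at 60.1 and 12.6 CPM, and with at least 3 markers their log2 ratios were -1.58 and 0.42. Pkib, an inhibitor of protein kinase A, and Grasp were spread more widely, in 30 and 13 anti-Gr-1 barcodes, at 90.6 and 24.8 CPM (ratio 3.65, 2.63 to 5.11) and at 52.5 and 11.8 CPM. The chemokine Pf4 was at 84.9 and 19.3 CPM, and the protease inhibitor Serpinb1a at 60.1 and 15.7 CPM. A single barcode held 59.6% and 55.6% of their anti-Gr-1 UMIs, and Serpinb1a was not above free RNA in either library. At 2000 UMIs a barcode the log2 ratios of Ccl7, Pf4, Fscn1 and Serpinb1a were below 0, at -0.35, -0.51, -1.43 and -3.18.

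Of the 10 lowest, Igf1, a growth factor that macrophages secrete, had 3 UMIs over the anti-Gr-1 members and 208 over the isotype control members (ratio 0.0350, 0.00715 to 0.104), found in 2 and 51 barcodes. Klra2, a lectin-like receptor of the Ly49 family, was at 13.4 and 84.6 CPM (ratio 0.158, 0.0848 to 0.271), in 8 of 59 and 110 of 288 barcodes, but at 0.13 on the log2 scale when thinned to 2000 UMIs. Ly6a, the antigen Sca-1, was at 6.68 and 57.1 CPM, with 3 and 35 barcodes, and was not above free RNA. Thbs1, Sirpb1c, Cxcl10, Rsad2, Spp1 and Ccl17, described above, were also among them. Igf1, Thbs1, Klra2 and Sirpb1c were each found in over 50 isotype control barcodes, and all 4 were lower as well among members with a dendritic cell gene (log2 ratios of -3.42, -1.65, -2.06 and -2.05).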

How the data were processed

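Live CD45+ skin cells were profiled in 1 anti-Gr-1 and 1 isotype control library by 10x 3′ v2 chemistry, per the labels' protocols. The deposited values are raw UMI counts, not normalized; the file headers name Cell Ranger 4.0.0 as the software. The submitters' processing notes give the build as mm10, spelled mms10 in the labels. Antibody tags named in the protocol were not used here. Groups came from the treatment labels.

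Barcodes with at least 200 genes and under 10% mitochondrial UMIs were kept (8047 and 19542 of the deposited 9110 and 21311) and gated in Python 3.11.15 (numpy 2.4.6, scipy 1.17.1, pandas 2.3.3; figures matplotlib 3.10.9). The gate, its members and all gene lists were chosen with earlier results of these data known. UMIs were summed per library. Log2 ratios used a pseudocount of 5 CPM, and a gene was counted as different at 2-fold or more with at least 20 UMIs over both groups and 50 CPM in 1. With 1 library per group no p-value was made. Named genes are the 10 highest and 10 lowest log2 ratios with at least 50 UMIs, 50 CPM and 5 barcodes, without Xist, Tsix, Y-linked, ribosomal, mitochondrial, haemoglobin, immunoglobulin, T cell receptor and unnamed genes and the rule's own. The rule also names the 15 genes highest in isotype control members over other barcodes, Il1b, Il1rn, Il1r2, Ccr2, Csf1r and up to 6 members of each list. Ly6c1, Ly6g, Spi1, the genes given by number of markers, list members beyond 6 and those named against the dendritic gate were chosen after their values were seen. Doublets were left in; the highest scrublet scores (scanpy 1.11.5), at 0.8% per 1000 barcodes, were taken out as an alternative. For thinning, each barcode was drawn down to 2000 UMIs, leaving out 343 and 5038 shallower ones. Ratios and intervals were tested on simulated data. Positions are from GENCODE M21 on mm10. Some genes that the rule names are not reported here.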

Additional observations from a re-analysis of the deposited data

Results flagged for a closer look

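Ms4a4c, 1 of the 4 genes that admit barcodes to the gate, stood on opposite sides of 1 in the sexes, with intervals that both exclude 1. Its level in anti-Gr-1 over isotype control members had a ratio of 1.45 (1.12 to 1.87) in female barcodes, from 81 and 250 UMIs over 11 and 91 barcodes, and of 0.630 (0.517 to 0.765) in male barcodes, from 153 and 337 UMIs over 38 and 104 barcodes. Since the rule selects on this gene, its level within the gate is a description. It was the only one of 30 genes with such intervals; the point ratios of Ccl7, Cma1, Mcpt4, Cpa3, Pf4, Fscn1 and Spp1 were below 1 in female and above 1 in male barcodes and that of Il1r2 the reverse, with female intervals that include 1, from 0 to 6 anti-Gr-1 UMIs. The difference between the sexes was not tested, since each library is a single pool.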

How the results depend on the processing

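No paired analysis was possible because each treatment is 1 library of pooled mice; leaving out replicates was likewise impossible. The share ratio of 0.498 was below 1 under each setting run. It was 0.295 with at least 3 markers, 0.206 with all 4, 0.168 thinned to 2000 UMIs, 0.332 with a Ly6c2 UMI, 0.731 among members with a dendritic cell gene, 0.0714 without one and 0.0398 with at least 3 markers and no dendritic cell gene. Gene levels were not run for these last 2 settings or for all 4 markers, where the anti-Gr-1 library held 3, 1 and 5 barcodes, under the minimum of 10. The settings with all 4 markers, 3 markers and no dendritic cell gene, a dendritic cell gene, a Ly6c2 UMI, 1 Cd3 UMI or no mast cell gate barcode were chosen after seeing the data.

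The 33 higher genes became 71 with at least 3 markers, 164 thinned, 192 in female barcodes, 17 with 1 Cd3 UMI allowed, 70 with a Ly6c2 UMI, 13 at 50 UMIs and 100 CPM and 87 with no CPM minimum. The 112 lower genes became 630 thinned, 450 in female barcodes, 63 among members with a dendritic cell gene, 68 at 50 UMIs and 100 CPM and 293 with no CPM minimum. The 253 genes apart from the non-classical gate became 416 with barcodes weighted equally, 140 at 50 UMIs and 100 CPM, 501 with no CPM minimum and 777 thinned. The cause was not tested; thinned and female settings held 21 and 11 anti-Gr-1 barcodes.

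Of 26 genes past 2-fold and named, 18 kept their sign and 10 were still past 2-fold when thinned, 19 and 14 in female barcodes, 23 and 20 without scrublet scores and 23 and 22 without mast cell gate barcodes. The last setting removes barcodes by the UMIs of Cma1, Mcpt4 and Cpa3, so it is no check of those 3 genes. Log2 ratios that changed sign when thinned were Ccl7 (-0.35), Cma1 (-3.54), Mcpt4 (-4.98), Cpa3 (-4.39), Pf4 (-0.51), Fscn1 (-1.43), Serpinb1a (-3.18) and Klra2 (0.13). In female barcodes they were Ccl7 (-1.41), Cma1 (-1.75), Mcpt4 (-0.52), Fabp4 (-1.93), Cpa3 (-0.60), Pf4 (-1.28) and Fscn1 (-0.47), and in male barcodes Fabp4 (-0.41) and Spp1 (0.71). Without the scrublet scores Cma1 was at -0.63, Mcpt4 at -0.70 and Cpa3 at -0.18, and without mast cell gate barcodes at -0.49, -0.68 and -0.0081. Fabp4 was at -1.58 with at least 3 markers and -1.15 with a Ly6c2 UMI. Of the list medians, 183 of 234 moved by less than 0.25. Of the values for single genes, 233 stayed within the counting interval, 132 moved out of it and 25 changed sign.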

Other observations

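Chil3, a chitinase-like protein that classical monocytes carry in blood, had 31 UMIs in the anti-Gr-1 members and 20 in the isotype control members, or 29.6 and 7.87 CPM, and was found in 3 and 9 barcodes. Arg1, the arginase of alternatively activated phagocytes, was at 36.2 CPM in the anti-Gr-1 members and 32.3 CPM in the isotype control members, from 1 and 9 barcodes. Retnla, a secreted protein of type 2 responses, was at 220 and 175 CPM in the members, not above free RNA. In the C1q macrophage gates it was at 5062 CPM in anti-Gr-1 and 2448 CPM in isotype control.

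In the non-classical gate, 21 barcodes of the anti-Gr-1 library and 114 of the isotype control library gave Ly6c2 at 4.21 and 282 CPM, Thbs1 at 0 and 873 CPM and Plac8 at 669 and 1917 CPM. For Thbs1, the absence of any UMI over those 21 barcodes allows up to 12.6 CPM. Fcgr4 was at 589 and 217 CPM there. H2-Ab1 was at 7495 and 3272 CPM in that gate, and 42.9% and 41.2% of its barcodes held a dendritic cell gene.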
